A study of Mus musculus with 4 samples.

Results

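The 36 genes described here encode lysosomal hydrolases, their soluble cofactors, lysosomal membrane proteins and a pair of transcription factors that act on lysosomal genes. They are given as a list of gene symbols. All probes of the array that carry one of these symbols were taken, which gave 74 probes of 56605 and 36 genes of 36693 named on the array. By role, 8 members are hydrolases of sphingolipids and glycolipids or their activator, 2 handle sterols and neutral lipids, 12 degrade glycans, 4 act in protein turnover, 8 are membrane proteins and 2 are transcription factors.

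The 4 groups are transgenic mice, which the series names MSA Tg (MSA is the usual short form of multiple system atrophy, a neurodegenerative disease), and wild-type mice, each represented by brainstem/cerebellum and by spinal cord taken at 24 weeks of age. All groups share a mixed background of the strains C57BL/6, 129 and C3H. The sample titles carry the prefix PLP and call the wild type Cont, but the labels do not state the transgene, its promoter, how many animals a sample holds or whether both tissues came from the same mice. Total RNA of each group was hybridised to 1 Agilent array in 1 colour. With 1 array per group there is no replicate to check a difference against, so every value is a description without a test.

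Lysosomes are acidic compartments in which soluble hydrolases, most of them delivered by the mannose 6-phosphate route, take apart lipids, glycans and proteins from endocytosis, phagocytosis and autophagy. Glycosylated membrane proteins line the compartment and carry products and ions across it, and factors of the TFEB and TFE3 family bind short CACGTG-containing elements near many lysosomal genes. In nervous tissue, inherited loss of many of these enzymes causes storage disease, and phagocytic microglia are rich in several of them.

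A level is given here as log2 of the processed signal minus the array's 75th percentile, so that 0 is the signal of a probe at that percentile. A difference is a log2 difference between 2 arrays, and 2-fold, a difference of 1 on the log2 scale, was the threshold for counting. Where a gene had several probes (20 members), the brightest over the 4 arrays stood for it. Of the 74 probes, 65 were well above background on all 4 arrays, 4 on some and 5 on none, and all 36 members were above background on all 4 arrays at their standing probe. Levels of different probes cannot be compared with each other, because probes differ in their response.

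Over the whole arrays, between 59.2% and 64.0% of 59305 spots that were not controls were well above background, and none was saturated. The wild-type spinal cord array lay on a slide of its own, while the other 3 shared a slide. Slide and genotype therefore cannot be told apart in the spinal cord comparison. The technical SD of a difference, from 300 probes with repeated spots on the same array, was 0.0912 for levels above 2, where it rests on 1156 values of a probe on an array. For levels from -4 to -2 it was 0.193, from only 4 such values. It leaves out all variation between arrays, including labelling, hybridisation and slide, and all variation between animals. All 11 posterior Hox genes that mark spinal cord were well above background on both spinal cord arrays, against 5 (transgenic) and 4 (wild type) in brainstem/cerebellum. All 7 markers of cerebellar granule and Purkinje cells were above background on both brainstem/cerebellum arrays, and the 6 that were also measurable on wild-type spinal cord had a median difference of -4.76 (spinal cord minus brainstem/cerebellum, log2). The tissue labels matched these markers, although the source name of all 4 samples is brain.

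The members stood apart mainly on the transgenic spinal cord array. In spinal cord, 10 of 36 members were at least 2-fold higher in the transgenic sample, where 7.81% of 21089 genes above background were called in that direction. These were Cd68, Gusb, Naglu, Hexa, Man2b1, Npc2, Cd63, Lipa, Lamp2 and Galns. Gla alone was at least 2-fold lower, against 7.8% of all genes. The median difference of the members was 0.58, beside -0.05 for all genes, and 28 of the members were above 0. When the arrays were scaled on spike-in probes, 5 members were higher and 2 lower (Gla and Tfeb), where 965 and 3839 of all 21089 genes were. The members' median was then 0.20 and 20 were above 0, while the median of all genes was -0.44. In bulk tissue, fewer cells of a type and less RNA per cell cannot be told apart.

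In brainstem/cerebellum the same genotype comparison gave much smaller values. Cd68 alone was at least 2-fold higher, where 2.45% of 20744 genes were called, and no member was 2-fold lower, where 0.299% were. The median of the members was 0.04, beside -0.05 for all genes, with 19 members above 0 and 17 below. A difference within 0.3 of 0 was found for 27 members, 8 were higher by at least 0.3, and Tfeb was lower by more than that.

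**Figure D1:**
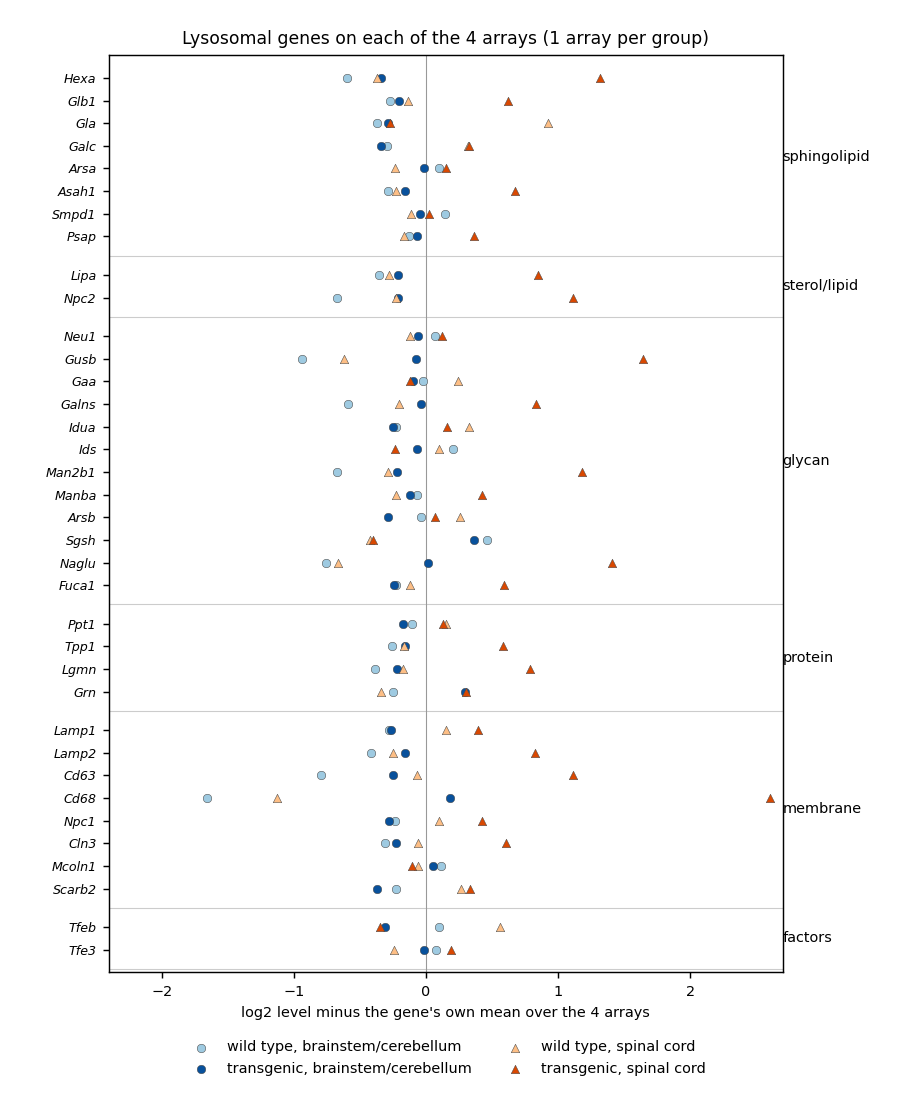
Level of each of the 36 members on the 4 arrays, as log2 level minus the gene's own mean over the arrays, with genes in rows by role. The transgenic spinal cord array is the highest for 26 members, and Cd68 has the widest spread.

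Among the membrane proteins, Cd68, a heavily glycosylated protein of late endosomes and lysosomes in macrophages, had the largest difference of all members in both tissues. Its level was 2.65 in transgenic and 0.81 in wild-type brainstem/cerebellum, and 5.07 in transgenic and 1.34 in wild-type spinal cord. Both transgenic arrays were above both wild-type arrays. The difference was 1.84 in brainstem/cerebellum (3.58-fold) and 3.73 in spinal cord (13.3-fold), at a probe on the minus strand at chr11:69477775-69477834 of build mm9. A further probe gave 1.89 and 3.81, and the last, which was dim in wild-type brainstem/cerebellum, gave 2.49 in spinal cord.

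Cd63, a tetraspanin of late endosomes, lysosomes and secreted vesicles, was the next of the membrane proteins. Its level was 5.07 in transgenic and 4.53 in wild-type brainstem/cerebellum and 6.44 and 5.25 in the same order in spinal cord. Its spinal cord difference was 1.19 (2.28-fold) and its brainstem/cerebellum difference 0.54. Lamp2, a structural protein of the lysosomal membrane with a role in chaperone-mediated autophagy, was at 2.56 and 2.31 in transgenic and wild-type brainstem/cerebellum and at 3.55 and 2.47 in spinal cord. The difference in spinal cord was 1.08, and its other probes gave 0.99 to 1.23. For Lamp2 the transgenic spinal cord array stood apart, and the other 3 arrays lay close together.

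Of the other 5 membrane proteins none reached 2-fold in either tissue at the standing probe. Lamp1, the close relative of Lamp2, differed by 0.25 in spinal cord and by 0.01 in brainstem/cerebellum. Cln3, the protein lost in juvenile neuronal ceroid lipofuscinosis, differed by 0.66 in spinal cord, and Npc1, the membrane partner of Npc2 in cholesterol export, by 0.32. Mcoln1, the lysosomal cation channel TRPML1, was lower by 0.04 in spinal cord (-0.04), with levels of 3.68 and 3.75 in transgenic and wild-type brainstem/cerebellum and 3.53 and 3.57 in spinal cord. A much dimmer Mcoln1 probe, whose accession was not matched to the gene table, gave -1.25 in brainstem/cerebellum and -0.45 in spinal cord. Scarb2, the receptor that carries glucocerebrosidase to lysosomes, had the lowest brainstem/cerebellum value of the group, -0.14, from levels of 3.60 and 3.74, and a spinal cord difference of 0.07. A further Scarb2 probe gave 0.98 in spinal cord, so the probes disagree.

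Over the 8 membrane proteins, the median difference was 0.49 in spinal cord and 0.05 in brainstem/cerebellum. With spike-in scaling the spinal cord median was 0.11 and Cd68 alone stayed past 2-fold there, where 3 had been. The brainstem/cerebellum median turned to -0.12 when arrays were scaled on their median, a scaling that moved the median of all genes there from -0.05 to -0.22.

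The glycan hydrolases held 4 of the 10 members that were higher in spinal cord. Gusb, beta-glucuronidase, had levels of 1.04 in transgenic and 0.18 in wild-type brainstem/cerebellum and of 2.77 and 0.50 in spinal cord. The differences were 0.86 and 2.27 (4.81-fold) at a probe at chr5:130465133-130465192, minus strand. Its second probe, whose transcript accession was not matched to the gene table, gave -0.19 and 0.48, so the Gusb value depends on the probe.

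Naglu, which removes N-acetylglucosamine from heparan sulfate, was at 2.13 and 1.36 in transgenic and wild-type brainstem/cerebellum and at 3.53 and 1.45 in spinal cord. Its only probe, at chr11:100938907-100938965 on the plus strand, gave differences of 0.78 and 2.08 (4.23-fold in spinal cord). For both genes the wild-type arrays were the lowest pair. Man2b1, lysosomal alpha-mannosidase, was at 1.84 and 1.38 in brainstem/cerebellum and at 3.24 and 1.77 in spinal cord, a difference of 0.46 and 1.47. Galns, which removes sulfate groups from keratan and chondroitin sulfate, was much nearer to background. Its levels were -2.30 and -2.84 in brainstem/cerebellum and -1.42 and -2.46 in spinal cord, and the difference in spinal cord, 1.03, was the smallest past the threshold. Its other probe gave 0.95, and Galns fell below 2-fold under every other scaling tried.

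The other 8 glycan hydrolases were within 2-fold in both tissues. Fuca1, which removes fucose, and Manba, beta-mannosidase, differed by 0.72 and 0.65 in spinal cord and by -0.01 and -0.06 in brainstem/cerebellum. Neu1, the lysosomal sialidase, differed by 0.24 and -0.13 in the same order. Gaa, the acid glucosidase of glycogen, had the lowest spinal cord value of the group, -0.36, from levels of 4.80 in transgenic and 5.16 in wild type; in brainstem/cerebellum its levels were 4.82 and 4.90. Ids, the iduronate sulfatase of heparan and dermatan sulfate, had the lowest brainstem/cerebellum value, -0.27, from levels of 5.05 and 5.32, and its spinal cord levels were 4.88 and 5.21, a difference of -0.34. Idua, the iduronidase of the same substrates, Arsb, a sulfatase of dermatan sulfate, and Sgsh, the heparan sulfamidase, differed by -0.17, -0.19 and 0.03 in spinal cord. Other Arsb probes above background gave 0.08 and 0.33 there, so the sign of Arsb depends on the probe. Enzymes of heparan sulfate breakdown therefore lay at both ends of the group, with Naglu high and Ids low on the same array.

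The 12 glycan hydrolases had a median of 0.45 in spinal cord, with 8 above 0 and 4 below; with spike-in scaling it was 0.06, with 6 above 0. In brainstem/cerebellum the median was -0.04, with 4 above 0 and 8 below. Its sign was positive under spike-in scaling (0.03), normexp (0.01), the authors' values (0.03) and the mean of probes (0.07).

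Among the sphingolipid and glycolipid hydrolases, Hexa, the alpha subunit of the hexosaminidase that degrades GM2 ganglioside, was the one higher by more than 2-fold. Its level was 2.17 in transgenic and 1.92 in wild-type brainstem/cerebellum and 3.83 and 2.14 in spinal cord. Only the transgenic spinal cord array was far from the others. The difference was 0.25 in brainstem/cerebellum and 1.69 in spinal cord (3.22-fold), at chr9:59411712-59411771 on the plus strand.

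Gla, alpha-galactosidase A, which degrades globotriaosylceramide, went the other way. Its single probe, at chrX:131122895-131122954 on the minus strand, gave levels of 5.43 (transgenic) and 5.34 (wild type) in brainstem/cerebellum and of 5.44 in transgenic spinal cord. On the wild-type spinal cord array it was 6.64. The spinal cord difference of -1.20 (2.29-fold lower) therefore came with a single array above the other 3, the array on its own slide; the part of the slide in it was not tested.

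The remaining 6 members of the group were within 2-fold at the standing probe. Asah1, acid ceramidase, differed by 0.90 in spinal cord, and its other probe by 0.98. Glb1, the beta-galactosidase of GM1 ganglioside, differed by 0.76 at a probe that was not matched to the gene table. Its probes above background ranged from 0.65 to 1.07 in spinal cord, and dim ones among them passed 2-fold. Psap, the precursor of the saposins that present lipids to these enzymes, differed by 0.53. Arsa, the sulfatase of the myelin lipid sulfatide, differed by 0.38. Galc, which degrades the myelin lipid galactosylceramide, differed by 0.01 from levels of -2.57 on both spinal cord arrays. Smpd1, acid sphingomyelinase, had the lowest brainstem/cerebellum value of the group, -0.19, from levels of 4.32 and 4.51, and its spinal cord levels were 4.39 and 4.26, a difference of 0.13. That spinal cord value turned to -0.25 with spike-in scaling. A dimmer Smpd1 probe had the opposite signs, 0.08 in brainstem/cerebellum and -0.10 in spinal cord. The median over the 8 genes was 0.45 in spinal cord, or 0.07 with spike-in scaling. In brainstem/cerebellum it was 0.06, and it was -0.10 when arrays were scaled on their median.

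Both sterol and neutral lipid genes were at least 2-fold higher in transgenic spinal cord, and neither was with spike-in scaling (0.96 for Npc2 and 0.74 for Lipa). Npc2, the soluble protein that hands cholesterol to Npc1, was at 3.04 in transgenic and 2.58 in wild-type brainstem/cerebellum and at 4.37 and 3.02 in spinal cord, a difference of 0.46 and 1.34 (2.54-fold in spinal cord). Lipa, lysosomal acid lipase, which frees cholesterol from its esters, was at 0.11 and -0.03 in brainstem/cerebellum and at 1.17 and 0.04 in spinal cord. The difference was 0.14 and 1.13 (2.19-fold in spinal cord). Npc2 was thus well above its partner Npc1 in spinal cord difference, 1.34 against 0.32, although other probes of Npc1 gave up to 0.82.

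Of the 4 protein turnover genes none passed 2-fold at the standing probe. Lgmn, the asparaginyl endopeptidase that cuts cathepsin precursors, came nearest: its levels were 5.14 and 4.98 in brainstem/cerebellum and 6.15 and 5.19 in spinal cord, a difference of 0.16 and 0.96. Tpp1, a tripeptidyl peptidase, differed by 0.75 in spinal cord, and Ppt1, a thioesterase that removes fatty acids from proteins, by -0.02. The levels of Ppt1 were 2.44 and 2.51 in transgenic and wild-type brainstem/cerebellum and 2.75 and 2.77 in spinal cord. Its 5 probes, all above background, ranged from -0.92 to 0.41 in spinal cord and from -1.97 (3.93-fold lower) to 0.18 in brainstem/cerebellum. The median of the group was 0.69 in spinal cord, or 0.30 with spike-in scaling, and 0.13 in brainstem/cerebellum, and the latter turned to -0.04 with median scaling.

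Grn, progranulin, a secreted protein that reaches lysosomes and is cut there into granulins, depended on the probe. The brightest probe, at chr11:102294591-102294650 on the plus strand, was at 7.52 in transgenic and 6.97 in wild-type brainstem/cerebellum and at 7.52 and 6.89 in spinal cord. These gave differences of 0.55 and 0.64, under 2-fold. The probe at chr11:102296724-102296783 was at 0.20 and -1.07 in brainstem/cerebellum and at 1.65 and -0.96 in spinal cord, differences of 1.27 and 2.61. The probe at chr11:102298060-102298119 gave differences of 0.93 and 2.03. All 3 probes were higher in both transgenic samples, and they disagreed on the size. The processed signal of the brightest probe was between 54850 and 84060, none of its spots was saturated, and the brightest spots of the arrays reached 179600 to 371600.

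Of the transcription factors, Tfeb was lower and Tfe3 higher in transgenic spinal cord at the standing probe, both within 2-fold. Tfeb was at -0.64 in transgenic and -0.23 in wild-type brainstem/cerebellum and at -0.69 and 0.22 in spinal cord, differences of -0.41 and -0.91. Its other 3 probes gave 0.35 to 0.41 in spinal cord, so neither sign holds over the probes of the gene. Tfe3 was at 2.51 and 2.60 in brainstem/cerebellum and at 2.71 and 2.28 in spinal cord, differences of -0.09 and 0.43, and its other probe was below background.

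**Figure D2:**
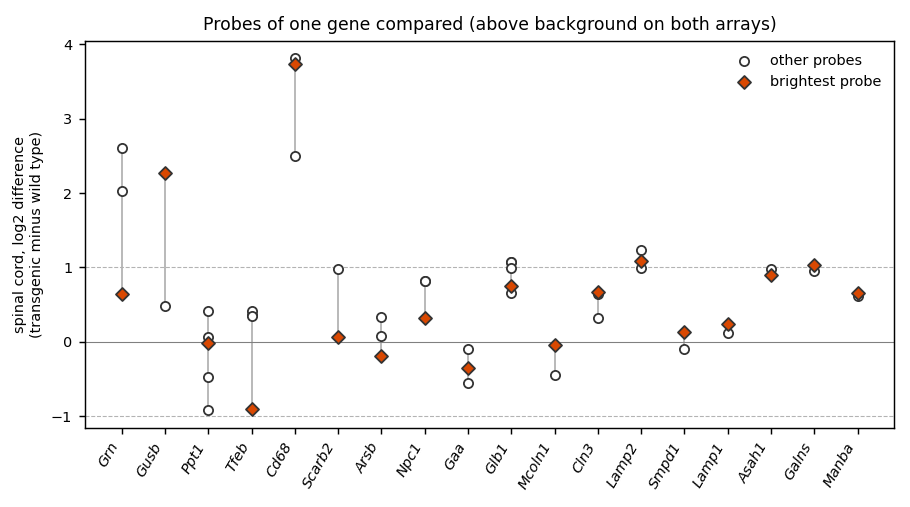
Spinal cord difference (log2, transgenic minus wild type) at each probe above background, for the 18 members with more than 1 such probe. Diamonds mark the brightest probe, which stands for the gene. Probes of Grn, Gusb, Tfeb and Ppt1 spread widely, while those of Lamp2 and Asah1 lie close together.

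Counted over probes and not over genes, 69 member probes were above background on both spinal cord arrays. Of these 17 were at least 2-fold higher and 1 lower, in 13 genes; over all 32160 probes above background there, 7.57% were higher and 6.84% lower. In brainstem/cerebellum 65 probes were above background on both arrays, with 3 higher and 2 lower in 4 genes, against 2.23% and 0.328% of 31696 probes. The 2 lower were dim probes of Ppt1 and Mcoln1. The members nearest to the spinal cord threshold were Galns (1.03) and Lamp2 (1.08) inside it and Lgmn (0.96), Tfeb (-0.91) and Asah1 (0.90) outside.

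The order of the members was similar in both tissues. All 10 members that were higher in transgenic spinal cord were above 0 in brainstem/cerebellum at the standing probe. Of these, 9 were among the 10 largest values there, and Grn was in place of Lipa. With median scaling Lipa was at -0.03 in brainstem/cerebellum, and the second Gusb probe gave -0.19 there in the main scaling. The spinal cord difference was the larger for 31 of 36 members. Across the 36 genes, which are not independent replicates, the differences of both tissues had a Pearson r of 0.878 and a Spearman rho of 0.828. These comparisons share no array, though 3 of the 4 arrays shared a slide. Without Cd68 the r was 0.811 over 35 genes, and without Cd68 and Gla it was 0.879 over 34. Over all 20059 genes above background on all 4 arrays it was 0.520.

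**Figure D3:**
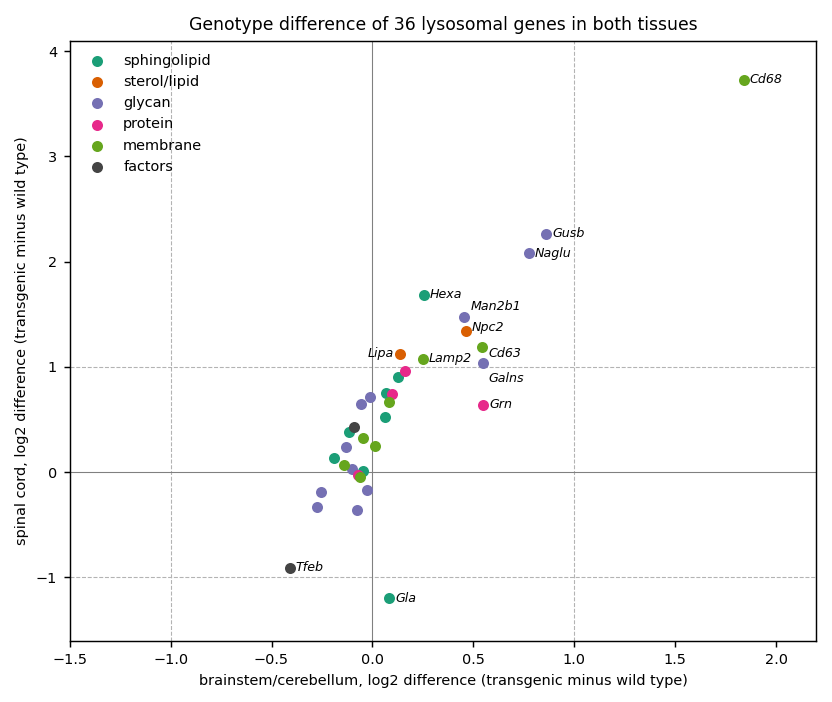
Genotype difference of each of the 36 members in brainstem/cerebellum (horizontal axis) and in spinal cord (vertical axis), as log2 transgenic minus wild type, with 1 point per gene coloured by role and dashed lines at 2-fold. Cd68 lies farthest up and right (1.84 and 3.73), and Gla is the one member below the lower dashed line.

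Between tissues the members differed little in wild type, where the arrays lay on different slides, so that tissue and slide cannot be told apart. The transgenic arrays of both tissues shared a slide. Spinal cord minus brainstem/cerebellum had a median of 0.22 in wild type, with Gla at least 2-fold higher in spinal cord (1.29), where 7.86% of 20710 genes were called, and no member 2-fold lower, where 4.31% were. Sgsh had the lowest value, -0.89. In the transgenic samples the same tissue difference had a median of 0.68, and 9 members were at least 2-fold higher in spinal cord, where 9.09% of 20824 genes were. These were Cd68, Gusb, Hexa, Man2b1, Naglu, Cd63, Npc2, Lipa and Lgmn. No member was 2-fold lower, where 6.1% of all genes were. With spike-in scaling 6 passed 2-fold upward and 1 downward, where 1135 and 2568 of the 20824 genes did, and the members' median was 0.35. These comparisons share arrays with those between genotypes. The wild-type spinal cord array was the highest for 6 members (Gla, Gaa, Idua, Arsb, Ppt1 and Tfeb), wild-type brainstem/cerebellum for 4 (Ids, Smpd1, Sgsh and Mcoln1), and transgenic brainstem/cerebellum for none.

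A further 79 genes of the lysosomal pathway were described by list. Among 12 cathepsins, the main lysosomal proteases, 7 were at least 2-fold higher in transgenic spinal cord and none was lower, with a median of 1.70. Over all genes above background there, 7.81% were called higher and 7.8% lower. In brainstem/cerebellum 3 cathepsins were higher, where 2.45% of all genes were, with a median of 0.63. Ctsz, a carboxypeptidase, differed by 2.36 in spinal cord, Ctsc, the dipeptidyl peptidase that activates serine proteases, by 2.29, and Ctsd, the main aspartic protease, by 2.05. Of 20 other enzymes and activators, 7 were higher and 1 (Dnase2a, -1.24) was lower in spinal cord, beside the same 7.81% and 7.8% of all genes. The median of the list was 0.53 there and 0.18 in brainstem/cerebellum. With spike-in scaling, 2 were higher and 2 lower in spinal cord, with a median of 0.14. Acp5, the tartrate-resistant acid phosphatase of macrophages and osteoclasts, had the largest difference of these, 5.03 in spinal cord and 4.08 in brainstem/cerebellum. The 3 probes of Dnase2a, taken without a background filter, ranged from -1.24 to 3.48 in spinal cord, so they disagree in sign.

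The subunits of the proton pump, the ATPase that acidifies lysosomes, lay mostly below 0. Of 20 subunits, 2 were higher and 1 was lower in spinal cord, counts near the shares of all genes (7.81% and 7.8%). The median was -0.34, with 13 below 0. The lower one was Atp6v1g2 (-1.28), whose 3 probes, taken without a background filter, ranged from -1.28 to 0.69. The higher ones were Tcirg1, at 1.35, and Atp6v0d2, an isoform of macrophages and osteoclasts that was not well above background in wild type, so that its 5.93 is a bound. In brainstem/cerebellum the median was -0.19, with 15 below 0. Atp6v0d2 alone was at least 2-fold higher there, with a bound of 1.82, and none was lower. Both medians stayed below 0 under every scaling tried. None of 6 genes of enzyme sorting passed 2-fold in either tissue. Of 19 other lysosomal membrane proteins and transporters, Laptm5, a protein of blood cell lysosomes, differed by 2.31 in spinal cord and 1.22 in brainstem/cerebellum, and Tpcn2, a lysosomal cation channel, by 1.19 in spinal cord. The medians of that list were 0.10 in spinal cord, which turned to -0.28 with spike-in scaling, and -0.04 in brainstem/cerebellum, which turned to 0.02 with it. Of the other relatives of Tfeb, Mitf differed by 0.42 in spinal cord, and Tfec was above background there in the transgenic sample only.

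**Figure D4:**
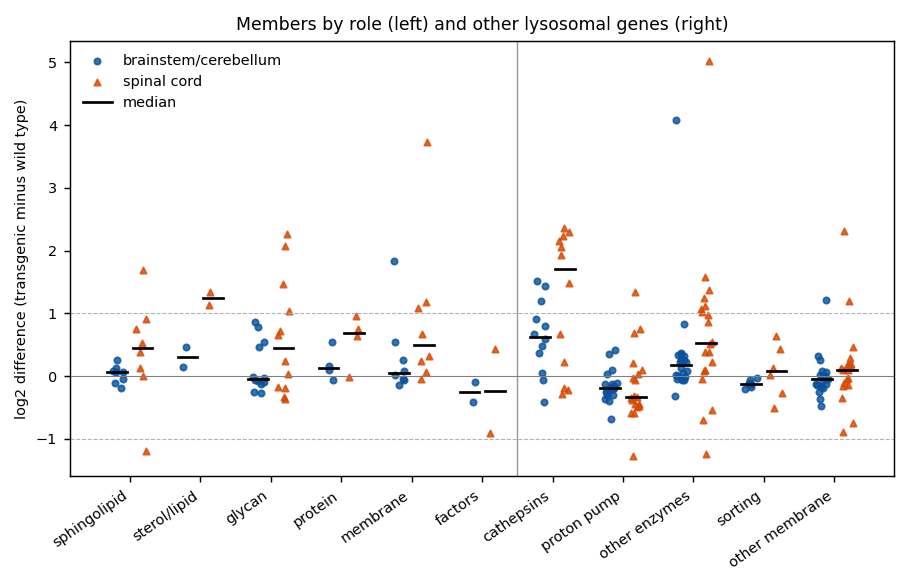
Genotype differences (log2, transgenic minus wild type) of the members by role and of the other lysosomal lists in both tissues, with 1 point per gene and bars at the medians; genes with a bound only are not drawn. Cathepsins have the highest medians of the 4 larger lists of other genes (0.63 and 1.70), and proton pump subunits the lowest (-0.19 and -0.34).

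Markers of microglia and macrophages moved beside these values. All 15 were above background on all 4 arrays. In spinal cord 11 were at least 2-fold higher in the transgenic sample and none was lower, with a median of 2.15. There 3 were below 0, the lowest at -0.85. In brainstem/cerebellum 8 were higher, with a median of 1.16. Over all genes, 7.81% were higher and 7.8% lower in spinal cord, and 2.45% were higher in brainstem/cerebellum. With spike-in scaling 10 markers were higher and 1 was lower in spinal cord, with a median of 1.77. The log2 of their summed level was 8.66 in transgenic and 6.88 in wild-type spinal cord and 7.08 and 6.16 in brainstem/cerebellum. Within the list, Adgre1, the macrophage antigen F4/80, differed by 3.84 in spinal cord and C1qa, a complement subunit, by 3.40, while P2ry12, a receptor of resting microglia, differed by -0.23 and Tmem119, a microglial membrane protein, by 0.74. The part of these cells in the lysosomal values was not tested.

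Markers of other cells had medians nearer to 0, and their counts stand beside the same shares of all genes. The 7 astrocyte markers had medians of 0.24 in brainstem/cerebellum and 0.41 in spinal cord (0.02 with spike-in scaling), with 2 at least 2-fold higher in each tissue and 1 lower in spinal cord. Gfap, the filament protein of astrocytes, differed by 1.43 in brainstem/cerebellum and 1.08 in spinal cord, and Gja1, a gap junction protein, by 1.95 and -1.81. The astrocyte markers had summed levels of 6.72 in transgenic and 6.02 in wild-type spinal cord. The 7 oligodendrocyte markers had medians of 0.05 and 0.18, of which the latter turned to -0.20 with spike-in scaling, with 1 past 2-fold upward in spinal cord. They had summed levels of 8.64 and 8.68 in spinal cord. The 7 neuron markers had medians of -0.20 and -0.61, of which 2 were past 2-fold downward in spinal cord, with summed levels there of 7.86 and 8.74. Their part in the values of the members was not tested.

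Promoter sequences are shown because the family of Tfeb and Tfe3 is known to bind the letters CACGTG, of which TCACGTGA is a longer form that contains it; both read the same on either strand. In RefSeq promoters of assembly GRCm38.p6, from 250 bases before to 50 after each start, 33 of 36 members were matched; Asah1, Npc1 and Galns were not. CACGTG was found in 10 of these 33 members (30.3%), against 8.09% of 27025 gene symbols and 7.15% of 32851 promoters. TCACGTGA was found in Cln3, Gla and Mcoln1, 9.09% of the members against 1.12% of symbols and 0.974% of promoters. A match is a description of letters, not a site. The following stretches, each 60 bases and written 5′ to 3′ on the strand of the gene, have the matched letters in capitals and lie before the start.
Naglu, chr11:101069994-101070053, plus strand: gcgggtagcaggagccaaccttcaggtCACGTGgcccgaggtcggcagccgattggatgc
Cln3, chr7:126583325-126583384, minus strand: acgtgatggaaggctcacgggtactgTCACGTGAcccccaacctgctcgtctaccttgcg
Gla, chrX:134601167-134601226, minus strand: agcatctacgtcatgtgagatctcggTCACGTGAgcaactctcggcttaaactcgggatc
Mcoln1, chr8:3500447-3500506, plus strand: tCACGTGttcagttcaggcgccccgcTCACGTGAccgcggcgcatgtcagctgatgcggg
Lamp1, chr8:13159073-13159132, plus strand: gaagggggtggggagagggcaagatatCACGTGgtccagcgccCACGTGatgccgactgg
Glb1, chr9:114401003-114401062, plus strand: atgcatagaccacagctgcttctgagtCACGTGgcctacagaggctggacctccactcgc

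The core CACGTG begins 73 bases before the start in Naglu, 121 in Cln3 and 194 in Gla. It begins 45 bases before the start in Mcoln1, 61 in Lamp1 and 48 in Glb1. Further copies begin 149 bases before the start in Cln3, 227 in Gla, 71 in Mcoln1 and 45, 28 and 15 in Lamp1. Naglu was the 1 member with CACGTG among the 9 matched members that were higher in transgenic spinal cord, and none of these held TCACGTGA. Of the other 24 matched members, 9 held CACGTG and 3 the longer form. The spinal cord differences of the members shown were 2.08 for Naglu, 0.76 for Glb1, 0.66 for Cln3, 0.25 for Lamp1, -0.04 for Mcoln1 and -1.20 for Gla. The other members with CACGTG, whose stretches are not shown, were Lgmn at 0.96, Arsa at 0.38, Sgsh at 0.03 and Gaa at -0.36.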

How the data were processed

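The deposited files are scanner output of 1-colour Agilent arrays with linear spot intensities, background-subtracted and detrended within the array, per the file headers, and not scaled between arrays. The submitters' processing notes name Feature Extraction 9.5.1.1, and the file headers 10.7.1.1; probe coordinates are mm9, per the file headers. RNA was extracted with TRIzol, cleaned on columns and labelled with Agilent's low-input kit, as the labels' protocols say. Control and outlier-flagged spots (63 to 134 per array) were left out. Each processed signal was put on the log2 scale and the array's 75th percentile subtracted, which lay at signals of 410 to 678, with spots of a probe averaged. Differences were transgenic minus wild type. A gene above background on 1 array only gives a bound: the dim side is set to the lowest signal well above background on that array, or to its own value where that is higher. Of the members' 74 probes, 54 had an accession in the RefSeq gene table under the same symbol and 20 had none there. The authors' processed intensities (median 30.4 on each array, normalization not given in the sources used here) followed a quantile normalization and served as an alternative. Other alternatives were median, spike-in (7 probes), quantile and normexp (offset 50, limma 3.58.1) scaling, a filter for background on all arrays, the mean of probes, and thresholds of 1.5 and 3-fold. Values on all arrays are given for the 21 members past 2-fold in either tissue, largest each way within a role, or transcription factors. The members and lists were chosen with earlier results of these data known. Scripts used Python 3.11.15 and were tested on simulated data. Some genes of the lists are not reported here by name.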

Additional observations from a re-analysis of the deposited data

Results flagged for a closer look

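Arsa, Smpd1 and Neu1 were lower in the transgenic than in the wild-type sample of brainstem/cerebellum and higher in that of spinal cord. Each value was larger than the technical SD, which comes from repeated spots on the same array and leaves out variation between arrays and animals. The spinal cord difference minus that of brainstem/cerebellum was 0.50 for Arsa, 0.32 for Smpd1 and 0.37 for Neu1 on the log2 scale. With 1 array per group, this difference between tissues was not tested. These are values of the standing probes, and the second probe of Smpd1 had the opposite signs (0.08 in brainstem/cerebellum and -0.10 in spinal cord). The spinal cord value of Smpd1 changed sign with spike-in scaling, to -0.25. That scaling lowered all spinal cord differences by the same amount, and the all-gene median went from -0.05 to -0.44. The signs of Arsa and Neu1 in spinal cord therefore also depend on the scaling, as do the differences between tissues.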

How the results depend on the processing

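In spinal cord, scaling on 7 spike-in probes took the all-gene median from -0.05 to -0.44 and, of the scalings, changed the counts most: 5 members were then at least 2-fold higher and 2 lower, with a median of 0.20, and the higher share of all calls went from 50.1% to 20.1%. Npc2 (0.96), Cd63 (0.80), Lipa (0.74), Lamp2 (0.69) and Galns (0.65) were then below 2-fold, and Tfeb (-1.30) passed it. The members' median minus that of all genes was 0.64, which scaling each array by a constant cannot change; it was 0.62 with quantile normalization, 0.56 with normexp and 0.67 in the authors' values. At 1.5-fold, 18 members were higher and 2 lower in spinal cord (15.9% and 19.4% of all genes) and 3 were higher in brainstem/cerebellum (6.39%). At 3-fold, 4 were higher and 0 lower in spinal cord (3.7% and 2.32%). Under the other scalings the spinal cord count stayed at 8 to 10. In brainstem/cerebellum the median of the members was -0.13 with median scaling, which moved that of all genes to -0.22 and the higher share of calls from 89.1% to 74.1%; the mean of the members was 0.15. With the mean of probes, Grn reached 1.76 and Tfeb 0.05 in spinal cord. No paired analysis was possible because the labels share no replicate numbers and each group has 1 array. The technical SD was 0.30 for the dimmest probes, and 1 array per group limits all values.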
